A study of Mus musculus with 9 samples.

Results

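Ribosome biogenesis and rRNA modification factors were examined in mouse blastocysts, as 49 genes taken by name from the 22564 genes of the deposited expression table. Each of the 49 was present once and carried 1 row. They fell into 7 roles: RNA polymerase I (2 genes), box C/D snoRNP proteins (3), box H/ACA snoRNP proteins (4), rRNA base methyltransferases (4), small subunit factors (22), large subunit factors (12) and nucleolar chaperones (2). The rule used gene names and no measured value, but the list was chosen with earlier results of these data known.

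Blastocysts of the strain C57BL/6 were collected at day 3.5 after fertilization in 3 groups of 3 libraries each. In dICSI-AOA, sperm heads that had been detached and incubated so that they activated oocytes poorly were injected into the oocyte (intracytoplasmic sperm injection, ICSI), and artificial oocyte activation (AOA) with the calcium ionophore ionomycin followed. In ICSI-AOA, normal sperm were injected and the same ionomycin step followed, and in ICSI, normal sperm were injected with no ionomycin, which served as the control. Each library came from pooled blastocysts, so that trophectoderm and inner cell mass were measured together, and fewer cells of a type cannot be told apart from less RNA per cell.

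A ribosome is built in the nucleolus, where RNA polymerase I transcribes a long precursor rRNA that is cut, folded, chemically modified and joined with ribosomal proteins. Small nucleolar RNPs guide most of the modifications: box C/D particles methylate the ribose, and box H/ACA particles turn uridine into pseudouridine, while stand-alone enzymes methylate particular bases. Large assemblies, such as the small subunit processome and the PeBoW complex of the large subunit, hold and cleave the precursor. In the mouse embryo nucleolar assembly starts with activation of the embryonic genome, and embryos without such factors often stop around the morula or blastocyst stage.

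The libraries held 128176 to 172307 fragments, 1370462 in all, and 1788 to 2033 genes per library had at least 10 fragments. Of all 22564 genes, 10436 (46.3%) had no fragment in any library. Mitochondrial genes took 6.50 to 7.27% of fragments in dICSI-AOA, 7.29 to 8.91% in ICSI-AOA and 6.18 to 9.61% in ICSI. The defining markers of the blastocyst were only partly detected: Pou5f1, Nanog, Sox2, Esrrb and Fgf4 of the 6 epiblast markers were at 0, as were Gata3, Tfap2c and Eomes of the 7 trophectoderm markers. The 7 trophectoderm markers summed to 11 to 16 fragments per library in dICSI-AOA, 6 to 10 in ICSI-AOA and 17 to 35 in ICSI, and their part in the results was not tested. The 6 epiblast markers summed to 0 to 1 fragments per library in dICSI-AOA, 0 to 6 in ICSI-AOA and 1 to 4 in ICSI. Of the 5 primitive endoderm markers 2 were at 0, and the 5 summed to 4 to 6 fragments in dICSI-AOA, 2 to 7 in ICSI-AOA and 1 to 7 in ICSI. The 7 cumulus and granulosa markers, 3 of them at 0, summed to at most 2 in any library, and all 6 sperm markers were at 0.

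At this depth the 49 genes were detected very unequally. In all 9 libraries together 16 of them (32.7%, against 46.3% of all genes) had no fragment, 14 had 1 to 9, 12 had 10 to 60 and 7 had 200 or more. The 7 high genes, Pes1, Krr1, Tsr1, Emg1, Dkc1, Nsun5 and Fbl, held 3520 of the 3845 fragments of the set (91.5%). No gene lay between 60 and 273 fragments, so that the next gene below Fbl was Rrp8 with 60. For comparison, 1104 of the 22564 genes (4.89%) had 200 or more fragments, against 7 of the 49 (14.3%).

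**Figure D1:**
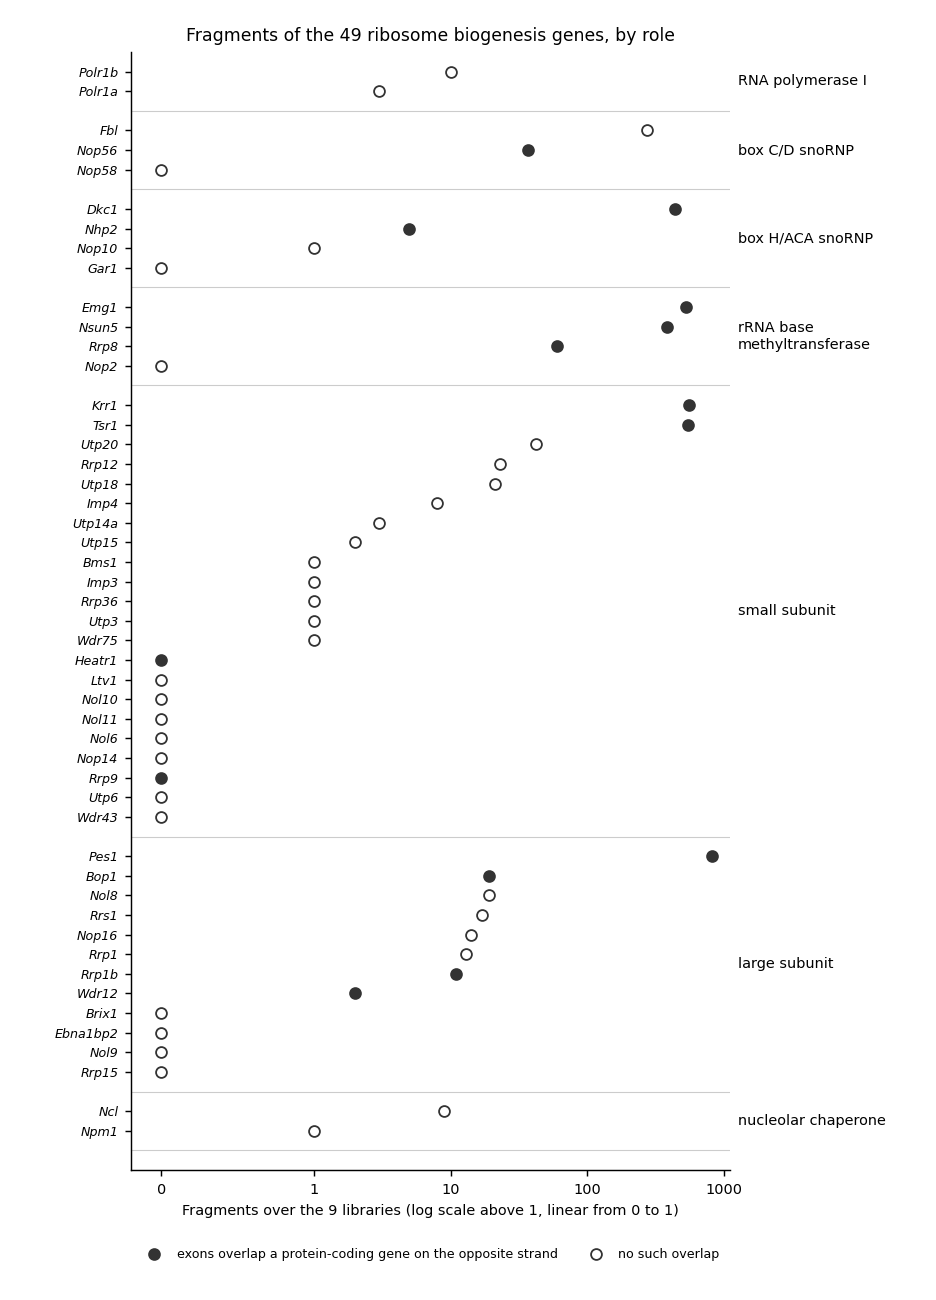
Fragments summed over the 9 libraries (horizontal axis, log scale above 1 and linear from 0 to 1) for each of the 49 genes, 1 point per gene, grouped by role; filled points have exons that overlap those of a protein-coding gene on the opposite strand. The 7 genes with 200 or more fragments stand to the right of all others, and 6 of these 7 points are filled, against 8 of the other 42.

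The undetected genes came from every role except RNA polymerase I and the nucleolar chaperones. Nop58, a core protein of box C/D particles, Gar1 of the box H/ACA particles and Nop2, a cytosine methyltransferase of the large subunit rRNA, had 0 fragments. Of the small subunit factors Utp6, Wdr43, Nol6, Nol10, Nol11, Heatr1, Nop14, Rrp9 and Ltv1 were at 0, and of the large subunit factors Ebna1bp2, Brix1, Rrp15 and Nol9. A count of 0 in all libraries allows up to 3 fragments in 1370462, so these genes were not detectable at this depth rather than shown to be absent, and this limit covers counting error only.

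Nucleolar chaperones, which are usually abundant, were also close to 0. Npm1, nucleophosmin, had 1 fragment, in ICSI replicate 6, and Ncl, nucleolin, had 9 in 4 libraries. Npm1 has many processed copies in the genome, and how the authors' counting treated reads that fit several copies was not stated, so its count is uncertain. RNA polymerase I was represented by Polr1a with 3 fragments and Polr1b with 10, both subunits of its catalytic core. Polr1b had 1, 1 and 1 fragments in dICSI-AOA, 3, 2 and 2 in ICSI-AOA, and none in the 3 ICSI libraries, at a mean FPKM under 1 and therefore outside the tests. How many genes with so few fragments separate in this way was not counted. In a fit without that filter Polr1b was called higher in ICSI-AOA than in ICSI, where 529 of 12128 genes were called by the thresholds given below.

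Of the 49 genes, 10 reached a mean of at least 1 FPKM (fragments scaled by transcript length and library size) and entered the tests: Pes1, Krr1, Tsr1, Emg1, Dkc1, Nsun5, Fbl, Rrp8, Nop56 and Rrp1b, or 20.4% of the 49, against 19.1% of all genes. Among them the mean FPKM over the 9 libraries was 67.9 ± 24.5 for Emg1, 60.7 ± 16.3 for Tsr1, 32.9 ± 6.74 for Dkc1, 30.7 ± 7.87 for Pes1, 24.7 ± 9.76 for Fbl, 18.8 ± 5.69 for Nsun5, 11.0 ± 5.45 for Krr1, 2.74 ± 1.18 for Rrp8, 2.08 ± 1.48 for Nop56 and 1.29 ± 1.87 for Rrp1b (SD over libraries, n = 9). The step between neighbours in this order was within the SD of the higher gene from Emg1 to Tsr1, from Dkc1 through Pes1 and Fbl to Nsun5, and from Rrp8 through Nop56 to Rrp1b. The order by FPKM was not the order by fragments. Krr1 had 552 fragments and Emg1 520, and their FPKM were 11.0 and 67.9.

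Of the 7 high genes, 6 share exon sequence with a protein-coding gene on the opposite strand, which bears on what their counts measure. By the GENCODE annotation of mm10, the only exception was Fbl, whose nearest protein-coding gene on the other strand, Selenov, lies 105383 bp away. Among all protein-coding genes of the table such an overlap was present in 626 of 1049 with 200 or more fragments (59.7%) and in 2118 of 20067 with fewer (10.6%). Among the 49 it was present in 6 of 7 and in 8 of 42. The library kit keeps strand, but whether the counts used it is not given in the sources used here, and the part of these overlaps in the counts was not tested.

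The overlaps differed in length and place. Tsr1 (chr11:74898071-74909342, plus strand) shared 1240 bp with Srr, serine racemase, of which 1159 bp were in annotated 3′ UTR of Tsr1. Nsun5 (chr5:135369953-135376805, plus strand) shared 665 bp at its 3′ end with Pom121, a nuclear pore protein. Krr1 (chr10:111972664-111988432, plus strand) shared 352 bp of 3′ UTR with exons of Glipr1, and Emg1 (chr6:124704085-124712178, minus strand) shared 334 bp with the 3′ UTR of Lpcat3, a phospholipid acyltransferase. These 4 pairs and Dkc1 (chrX:75095854-75109777, plus strand), which shared 45 bp with Mpp1, were arranged tail to tail. Pes1 (chr11:3963975-3980004, plus strand) shared 138 bp of coding exon with 4930556J24Rik in a head to head arrangement. Of the 16 members at 0 fragments, 2 had such an overlap (12.5%), against 3.84% of all protein-coding genes at 0. Heatr1, a small subunit processome scaffold, shares 155 bp with Lgals8, which had 45 fragments. Rrp9 shares 20 bp with Parp3, which had 2.

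**Figure D2:**
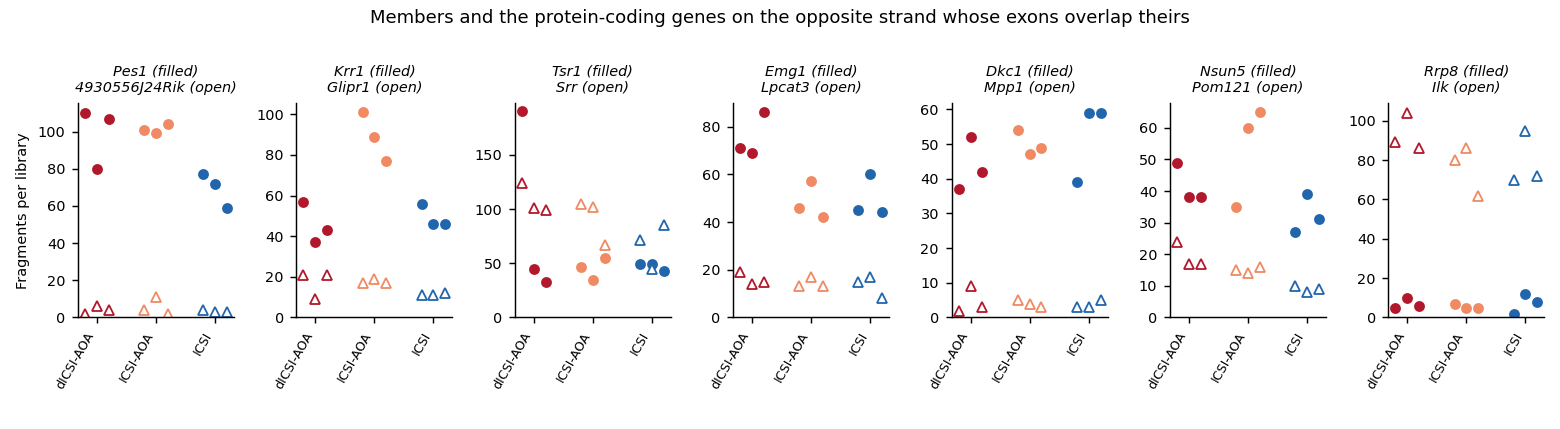
Fragments per library (vertical axis, from 0) of 7 members (filled circles) and of the protein-coding gene on the opposite strand whose exons overlap theirs (open triangles), with the 3 libraries of dICSI-AOA, ICSI-AOA and ICSI from left to right. The partner was lower than the member in all 9 libraries for Pes1, Krr1, Emg1, Dkc1 and Nsun5, and Ilk was higher than Rrp8 in all 9.

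The partners' own counts stood beside the members as follows. Pom121, beside Nsun5, had 24, 17 and 17 fragments in dICSI-AOA, 15, 14 and 16 in ICSI-AOA and 10, 8 and 9 in ICSI. All 3 libraries of either AOA group lay above those of ICSI, in fragments and in FPKM. In FPKM this held for 11.3% of all genes tested in ICSI-AOA and for 16.7% in dICSI-AOA. The log2 fold change of Pom121 was 0.62 (SE 0.39) in ICSI-AOA against ICSI, not called, where Nsun5 was called at 0.62. It was 0.94 (SE 0.38) in dICSI-AOA against ICSI, called, where Nsun5 was not.

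Glipr1, beside Krr1, had 21, 9 and 21 fragments in dICSI-AOA, 17, 19 and 17 in ICSI-AOA and 11, 11 and 12 in ICSI. In ICSI-AOA against ICSI its log2 fold change was 0.52 (SE 0.38), the direction in which Krr1 was called. All 3 ICSI-AOA libraries of Glipr1 lay above those of ICSI in fragments and in FPKM, the latter as in 11.3% of all genes tested. Between dICSI-AOA and ICSI-AOA the log2 fold change of Glipr1 was −0.10 (SE 0.36). Srr, beside Tsr1, had 124, 101 and 99 fragments in dICSI-AOA, 105, 102 and 67 in ICSI-AOA and 71, 45 and 85 in ICSI. It was called higher in dICSI-AOA than in ICSI, at 0.52 (SE 0.24), where Tsr1 was not called, and was 0.21 (SE 0.24) between dICSI-AOA and ICSI-AOA, not called, where Tsr1 was.

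Lpcat3, beside Emg1, had 19, 14 and 15 fragments in dICSI-AOA, 13, 17 and 13 in ICSI-AOA and 15, 17 and 8 in ICSI, and a log2 fold change of 0.12 in dICSI-AOA against ICSI-AOA (SE 0.37) and against ICSI (SE 0.37). 4930556J24Rik, beside Pes1, had 2, 6 and 4 fragments in dICSI-AOA, 4, 11 and 2 in ICSI-AOA and 4, 3 and 3 in ICSI, and 0.63 (SE 0.70) in ICSI-AOA against ICSI, where Pes1 was called. Glipr1, Lpcat3 and 4930556J24Rik were called in no comparison.

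Because the called members with a RefSeq promoter entry were Krr1, Emg1, Pes1 and Tsr1, the sequences around their transcription starts are given here, 300 bases each on GRCm38.p6 and read on the gene's own strand. Capitals mark CACGTG, the E-box bound by MYC and related factors, and CCGGAAG, a core of ETS factor sites. Krr1 holds neither, and Nsun5 had no entry.
Krr1, chr10:111972445-111972744, plus strand: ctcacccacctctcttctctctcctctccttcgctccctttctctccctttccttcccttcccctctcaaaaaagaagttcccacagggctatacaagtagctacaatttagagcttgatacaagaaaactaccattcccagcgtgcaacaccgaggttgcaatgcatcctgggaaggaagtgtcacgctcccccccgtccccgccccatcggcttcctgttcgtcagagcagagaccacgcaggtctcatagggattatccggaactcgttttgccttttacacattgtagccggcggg
Emg1, chr6:124712129-124712428, minus strand: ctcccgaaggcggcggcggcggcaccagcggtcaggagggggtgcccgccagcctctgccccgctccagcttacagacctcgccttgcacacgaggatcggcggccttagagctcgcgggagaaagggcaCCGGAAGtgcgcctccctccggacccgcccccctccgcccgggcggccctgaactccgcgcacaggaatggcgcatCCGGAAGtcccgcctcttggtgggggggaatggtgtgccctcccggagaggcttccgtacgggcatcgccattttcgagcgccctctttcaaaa
Pes1, chr11:3963725-3964024, plus strand: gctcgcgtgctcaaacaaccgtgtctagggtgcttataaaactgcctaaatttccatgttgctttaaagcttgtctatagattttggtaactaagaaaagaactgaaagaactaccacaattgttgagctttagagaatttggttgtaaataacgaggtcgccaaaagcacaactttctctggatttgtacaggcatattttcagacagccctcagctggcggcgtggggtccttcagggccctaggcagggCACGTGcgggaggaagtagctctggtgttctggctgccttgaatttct
Tsr1, chr11:74897830-74898129, plus strand: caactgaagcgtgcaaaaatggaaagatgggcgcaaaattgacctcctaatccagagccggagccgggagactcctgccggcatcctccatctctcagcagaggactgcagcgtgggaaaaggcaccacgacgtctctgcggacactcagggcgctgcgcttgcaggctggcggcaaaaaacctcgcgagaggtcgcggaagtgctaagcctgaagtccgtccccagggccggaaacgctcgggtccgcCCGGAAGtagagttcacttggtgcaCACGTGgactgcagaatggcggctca

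Positions were counted from 1 at the annotated start, negative upstream. Pes1 had its E-box at 3 and Tsr1 at 25, just inside the transcribed part. Emg1 had ETS cores at −120 and −44, and Tsr1 had 1 at −1. Of the 41 members with an entry, 9 (22.0%) held CACGTG, among them Imp4, Nop2, Utp18, Utp20, Ltv1, Nol11 and Wdr43, and 15 (36.6%) held CCGGAAG on either strand. The shares over all 27025 promoters of the same length were 7.24 and 9.12%, and over the 15850 that belong to protein-coding genes of the deposited data they were 8.08 and 12.03%. TATAAA was present in 4 members (9.76%), against 14.2% of all promoters. CACGTG and CCGGAAG do not overlap each other in these windows, and a match is a description of the letters only.

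The 3 comparisons were fitted on whole fragments with the quasi-likelihood test of edgeR, and a gene was called at a fold change over 1.3 with an unadjusted p under 0.05, thresholds that follow the study. Of the 10 members tested, ICSI-AOA against ICSI gave 3 called, all higher (Krr1, Nsun5 and Pes1), where 7.06% of the 4304 genes tested were called, 3.0% higher and 4.07% lower. In dICSI-AOA against ICSI, 1 member was called, Emg1, higher, where 6.60% of genes were called, 3.09% higher. In dICSI-AOA against ICSI-AOA, 3 members were called, Emg1 and Tsr1 higher and Krr1 lower, where 6.60% of genes were called, 3.62% higher and 2.97% lower. All 7 calls fell on members with a mean of at least 10 fragments, of which there were 7, and among all 1881 such genes 10.2, 9.36 and 8.51% were called in the 3 comparisons in that order. With 7 genes and comparisons that share libraries, these counts describe the members and carry no test of the set.

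No member passed an adjusted p of 0.05 over the 4304 genes by edgeR, DESeq2 or limma on log2(FPKM + 1), but Krr1 passed it between the AOA groups under 4 of 20 alternatives, given with its values below. The smallest adjusted p by edgeR was 0.443 in ICSI-AOA against ICSI, 0.732 in dICSI-AOA against ICSI and 0.0741 in dICSI-AOA against ICSI-AOA. At an unadjusted p under 0.05 DESeq2 gave 1, 0 and 2 members and limma 2, 1 and 2. The median log2 fold change of the 10 members was 0.22, 0.17 and −0.15 by edgeR, and that of all 4304 genes −0.02, −0.01 and −0.02.

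**Figure D3:**
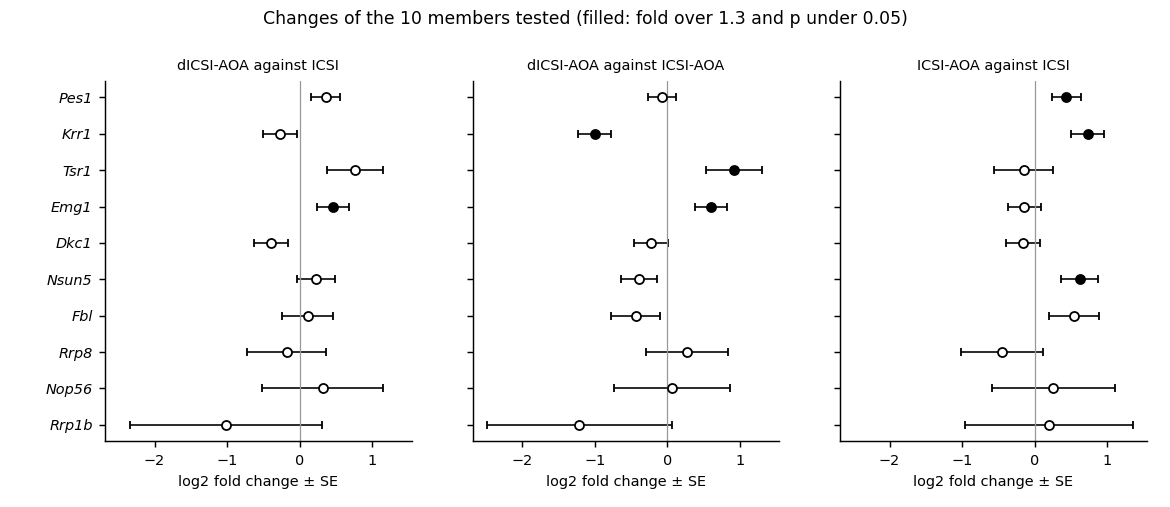
log2 fold change ± SE by edgeR (horizontal axis) of the 10 members tested, from most to fewest fragments, in each of the 3 comparisons; filled points were called. Krr1 stands at −1.0 in dICSI-AOA against ICSI-AOA and at 0.73 in ICSI-AOA against ICSI, and Rrp1b, with 11 fragments, has the widest error bars.

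Scaling bears on every direction given against ICSI. The authors' own size factors, which also underlie the FPKM, put the median gene 0.25 higher in ICSI-AOA and 0.36 higher in dICSI-AOA than in ICSI on the log2 scale, whereas the trimmed-mean scaling used here put it at −0.02 and −0.01. In FPKM the 3 libraries of ICSI-AOA lay above all 3 of ICSI in 11.3% of the 4304 genes and below them in 2.39%, and those of dICSI-AOA lay above in 16.7% and below in 1.63%. With the authors' factors the members called in dICSI-AOA against ICSI were 3, Emg1, Tsr1 and Pes1, at log2 fold changes of 0.84, 1.21 and 0.76. Fold changes below use the trimmed-mean scaling, and FPKM are read against these shares. Separations of groups in fragments were not counted over all genes, so none of them has such a share beside it.

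Krr1, a KH-domain protein of the small subunit processome needed for 18S rRNA maturation, showed the largest change among the 7 high members. It had 57, 37 and 43 fragments in dICSI-AOA, 101, 89 and 77 in ICSI-AOA and 56, 46 and 46 in ICSI. In fragments the ICSI-AOA libraries lay above all 6 others, and the other groups overlapped. Krr1 was lower in dICSI-AOA than in ICSI-AOA by a log2 fold change of −1.0 (SE 0.23, edgeR adjusted p = 0.0741), and higher in ICSI-AOA than in ICSI by 0.73 (SE 0.23, edgeR adjusted p = 0.443). Against ICSI, dICSI-AOA had −0.27 (SE 0.24), which was not called and was 0.14 with the authors' factors.

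In FPKM Krr1 was again highest in ICSI-AOA, with a wide spread there, and dICSI-AOA and ICSI overlapped, at means of 8.50 and 7.66. The values were 10.8, 7.14 and 7.59 in dICSI-AOA, 23.97, 12.6 and 13.5 in ICSI-AOA and 7.91, 7.31 and 7.77 in ICSI. All 3 dICSI-AOA libraries lay below the 3 of ICSI-AOA, as in 3.35% of the genes tested, with 6.97% above and 10.3% in all not overlapping. All 3 ICSI-AOA libraries lay above those of ICSI, where 13.7% of genes did not overlap. The adjusted p by edgeR of dICSI-AOA against ICSI-AOA was under 0.05 with the replicate block (0.01003), without a filter (0.0259), without dICSI-AOA replicate 1 (0.0236) and without ICSI replicate 5 (0.0491), within a range of 0.01003 to 0.849 over the 20 alternatives. Both Krr1 calls were made under all alternatives, including without any 1 library, when the log2 fold change ranged between −1.18 and −0.89 for dICSI-AOA against ICSI-AOA and between 0.61 and 0.92 for ICSI-AOA against ICSI.

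Emg1, which methylates a pseudouridine of 18S rRNA and is itself part of the small subunit processome, was highest in dICSI-AOA. It had 71, 69 and 86 fragments there, 46, 57 and 42 in ICSI-AOA and 45, 60 and 44 in ICSI. In fragments all 3 dICSI-AOA libraries lay above the 6 others, and ICSI-AOA and ICSI overlapped. The log2 fold change was 0.60 (SE 0.22, edgeR adjusted p = 0.605) for dICSI-AOA against ICSI-AOA and 0.46 (SE 0.22, edgeR adjusted p = 0.732) for dICSI-AOA against ICSI. In FPKM the means were 98.0 ± 8.68 in dICSI-AOA, 56.4 ± 10.2 in ICSI-AOA and 49.3 ± 11.7 in ICSI (SD, n = 3 each). Again dICSI-AOA overlapped neither. Of the genes tested, 18.4% did not overlap between dICSI-AOA and ICSI, with 16.7% higher in dICSI-AOA. Between dICSI-AOA and ICSI-AOA 10.3% did not overlap, with 6.97% higher in dICSI-AOA. The call between the AOA groups was made under all alternatives. The call against ICSI was lost without dICSI-AOA replicate 4 or 5, or ICSI replicate 2 or 6, when the log2 fold change was 0.38 to 0.48. It was also lost by DESeq2, at 0.45, without a filter, at 0.47, and with only the libraries compared, at 0.46.

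Of the other base methyltransferases tested, Nsun5 was called in 1 comparison and Rrp8 in none. Nsun5, a cytosine methyltransferase of 28S rRNA, had 49, 38 and 38 fragments in dICSI-AOA, 35, 60 and 65 in ICSI-AOA and 27, 39 and 31 in ICSI. ICSI-AOA replicate 1 lay inside the range of ICSI, and replicates 4 and 5 above it. Nsun5 was called higher in ICSI-AOA than in ICSI, at a log2 fold change of 0.62 (SE 0.26, edgeR adjusted p = 0.599), and the call was lost without ICSI-AOA replicate 4 or 5, or ICSI replicate 2 or 6, at 0.45 to 0.60, and by DESeq2, at 0.62. Against ICSI, dICSI-AOA had 0.23 (SE 0.26), not called. Between dICSI-AOA and ICSI-AOA it was −0.39 (SE 0.25), and without ICSI-AOA replicate 1 it was called lower, at −0.62.

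In FPKM, unlike in fragments, both AOA groups of Nsun5 lay above ICSI, and they overlapped each other. The values were 24.5, 18.2 and 16.8 in dICSI-AOA, 19.2, 22.8 and 28.4 in ICSI-AOA and 10.3, 15.6 and 13.2 in ICSI. Among all genes tested, 11.3% lay above ICSI in this way in ICSI-AOA and 16.7% in dICSI-AOA. Rrp8, which methylates an adenine of 28S rRNA, had 5, 10 and 6 fragments in dICSI-AOA, 7, 5 and 5 in ICSI-AOA and 2, 12 and 8 in ICSI, all groups overlapping, and was not called. Its head to head partner Ilk, integrin-linked kinase, had 744 fragments over the libraries against 60 for Rrp8, and the pair shares 355 bp of exon.

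**Figure D4:**
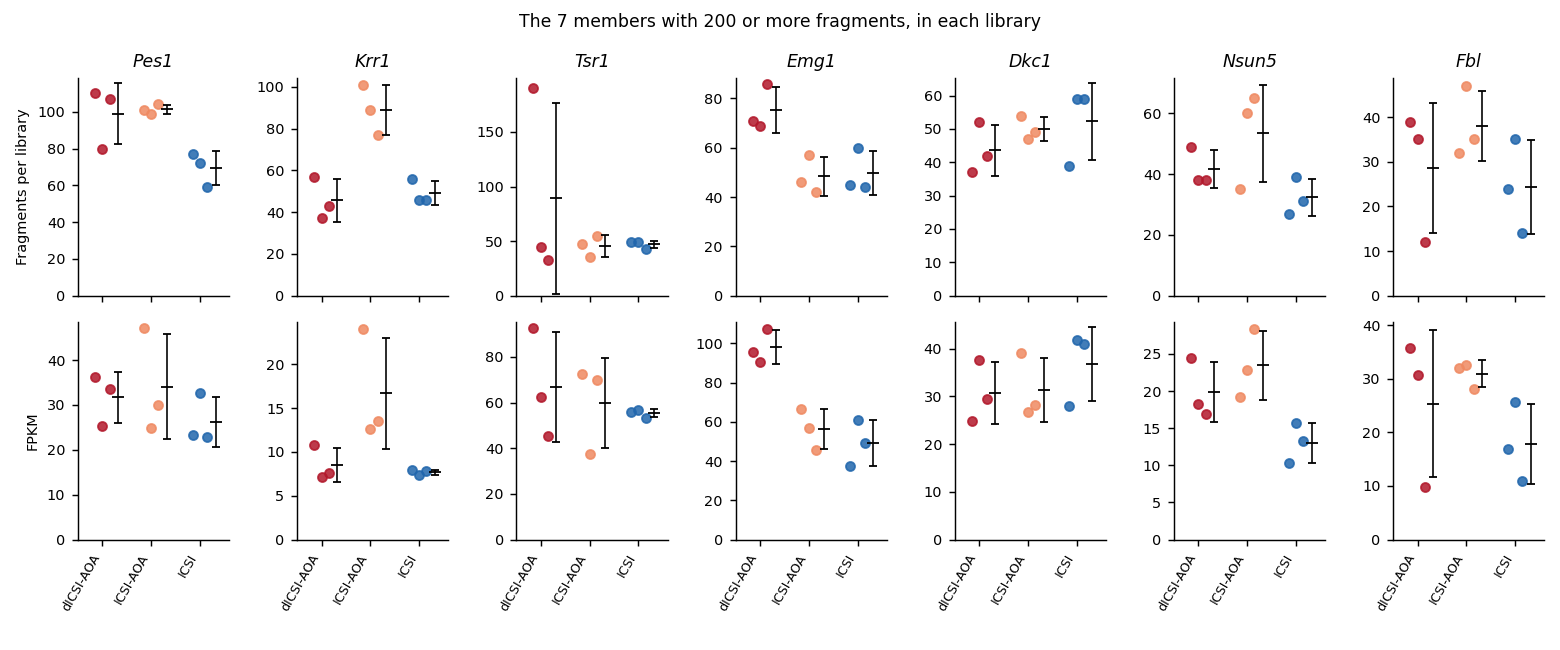
Fragments (upper row) and FPKM (lower row) of the 7 members with 200 or more fragments, 1 point per library, with the mean and SD of each group (n = 3) as a bar beside the points; dICSI-AOA, ICSI-AOA and ICSI run from left to right and all axes start at 0. Krr1 is highest in ICSI-AOA and Emg1 in dICSI-AOA, and 1 dICSI-AOA library of Tsr1 stands at 190 fragments.

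Tsr1, a GTPase-like factor of late 40S maturation, rested on 1 library. It had 190, 45 and 33 fragments in dICSI-AOA, 47, 35 and 55 in ICSI-AOA and 49, 49 and 43 in ICSI. Apart from dICSI-AOA replicate 1 the 8 libraries lay between 33 and 55. Tsr1 was called higher in dICSI-AOA than in ICSI-AOA, at a log2 fold change of 0.92 (SE 0.39, edgeR adjusted p = 0.664). Without dICSI-AOA replicate 1 it was −0.24 and not called, and without ICSI-AOA replicate 4 it was 0.75 and not called. The call was also lost by DESeq2, at 0.92, by limma, at 0.15 and 0.16, and with the higher minimum of 5 FPKM or of 10 fragments, at 0.90 each. Against ICSI, dICSI-AOA had 0.77 (SE 0.39, edgeR adjusted p = 0.735), and −0.40 without that replicate. It was called there without dICSI-AOA replicate 4, at 1.06, or replicate 5, at 1.17.

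The 2 deposited measures of Tsr1 disagreed in that library. Its FPKM were 92.6, 62.5 and 45.2 in dICSI-AOA, 72.6, 37.3 and 70.1 in ICSI-AOA and 55.7, 56.7 and 53.3 in ICSI, and all groups overlapped. Replicate 1 was thus highest in both, but by far less in FPKM. The deposited counts of Tsr1 were not whole multiples of 1 fragment in any of the 9 libraries, unlike 183 of the 196 positive values of the set, and were rounded here. The other fractional values were in Bop1 and Polr1a.

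Pes1, the pescadillo protein of the PeBoW complex, had the most fragments of the set. It had 110, 80 and 107 in dICSI-AOA, 101, 99 and 104 in ICSI-AOA and 77, 72 and 59 in ICSI, so that all 6 AOA libraries lay above the 3 ICSI libraries in fragments. Libraries differed in depth, and scaled to library size by the trimmed-mean factors (CPM) dICSI-AOA replicate 4, at 554, lay below ICSI replicate 2, at 616, while the ICSI-AOA libraries still lay above those of ICSI. Only ICSI-AOA against ICSI was called, at a log2 fold change of 0.43 (SE 0.20, edgeR adjusted p = 0.669), and dICSI-AOA against ICSI had 0.36 (SE 0.20, edgeR adjusted p = 0.776), a fold of 1.28. The call was lost without any 1 of the ICSI-AOA libraries, and without ICSI replicate 5 or 6, when the log2 fold change was 0.33 to 0.45. It was also lost by DESeq2, at 0.43, by limma with either pseudocount, at 0.33 and 0.34, and without a filter, at 0.44. The other comparison was called without dICSI-AOA replicate 4, at 0.45, or ICSI replicate 2, at 0.52. FPKM did not separate the groups, at 36.3, 25.3 and 33.5 in dICSI-AOA, 47.2, 24.8 and 30.0 in ICSI-AOA and 23.3, 32.6 and 22.8 in ICSI.

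The partners of Pes1 in PeBoW were scarce beside it. Bop1 had 19 fragments over the 9 libraries, with 6 of them in dICSI-AOA replicate 5, and Wdr12 had 2, both in ICSI-AOA replicate 4, against 809 for Pes1. Per kilobase of exon this was 6.43 fragments for Bop1, 0.17 for Wdr12 and 267.5 for Pes1. Of the other large subunit factors Nol8 had 19, Rrs1 17, Nop16 14, Rrp1 13 and Rrp1b 11 fragments, and no library held more than 4 of any of these 5.

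**Figure D5:**
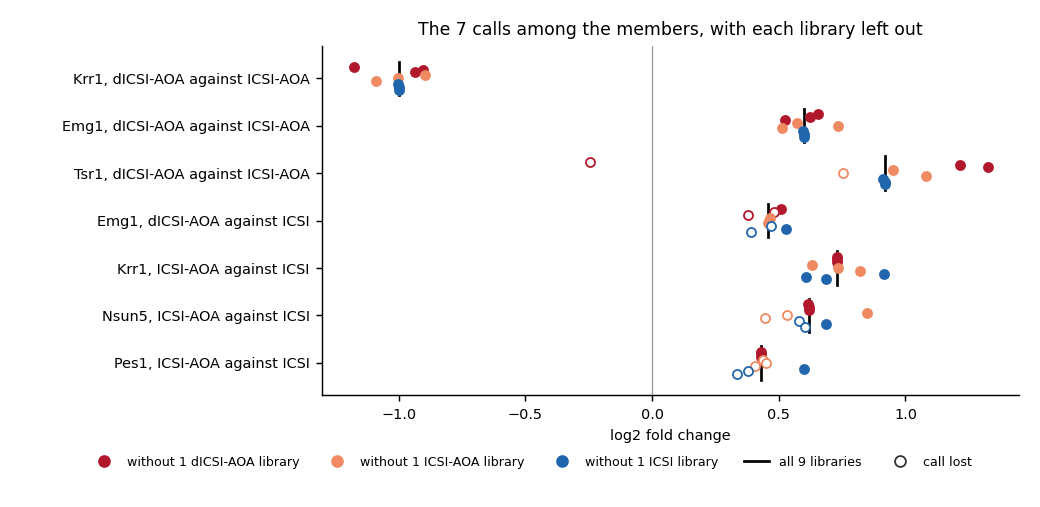
log2 fold change by edgeR (horizontal axis) of the 7 calls among the members with all 9 libraries (vertical bars) and without each library in turn (points, coloured by the group of the library left out); open points are those at which the call was lost. Krr1 keeps its calls throughout, between −1.18 and −0.89 for dICSI-AOA against ICSI-AOA, and Tsr1 stands at −0.24 without dICSI-AOA replicate 1.

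The catalytic proteins of the 2 snoRNP classes, fibrillarin and dyskerin, were not called in any comparison with all 9 libraries. Fbl, the ribose methyltransferase of box C/D particles, had 39, 35 and 12 fragments in dICSI-AOA, 32, 47 and 35 in ICSI-AOA and 24, 35 and 14 in ICSI. The lowest values were 1 library each of dICSI-AOA and ICSI, and the groups overlapped. The log2 fold changes were 0.54 (SE 0.34) for ICSI-AOA against ICSI, 0.11 (SE 0.35) for dICSI-AOA against ICSI and −0.43 (SE 0.34) for dICSI-AOA against ICSI-AOA. The first was 0.80 and called without ICSI replicate 5, and also with the authors' factors. In FPKM ICSI-AOA, at 30.9 ± 2.53, lay above ICSI, at 17.8 ± 7.39 (SD, n = 3 each), without overlap, as in 11.3% of the genes tested. In dICSI-AOA the FPKM, at 25.4 ± 13.8, overlapped both.

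Dkc1, dyskerin, the pseudouridine synthase of box H/ACA particles and a part of telomerase, had 37, 52 and 42 fragments in dICSI-AOA, 54, 47 and 49 in ICSI-AOA and 39, 59 and 59 in ICSI. All groups overlapped. Without dICSI-AOA replicate 4 it was called lower in dICSI-AOA than in ICSI, at −0.58. With all libraries the log2 fold change against ICSI was −0.39 (SE 0.24) in dICSI-AOA and −0.17 (SE 0.23) in ICSI-AOA, the second of which was 0.11 with the authors' factors, and it was −0.23 (SE 0.24) between the AOA groups. These errors leave room for changes of the size called in Pes1, so that a p over 0.05 does not show equal levels.

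The proteins that assemble with fibrillarin and dyskerin were far below them. Nop56 had 9, 1 and 4 fragments in dICSI-AOA, 0, 10 and 3 in ICSI-AOA and 4, 3 and 3 in ICSI. Its SE was 0.80 to 0.85 on the log2 scale, and a change of that size would not have been called. In ICSI-AOA against ICSI it was 0.83 without ICSI-AOA replicate 1 and −1.19 without ICSI-AOA replicate 4, and neither was called. Nhp2 had 5 fragments in all, in 4 libraries, and Nop10 had 1. With Nop58 and Gar1 at 0, each snoRNP class had 1 gene above 200 fragments and all its other members at 37 or fewer.

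Among the small subunit factors below Krr1 and Tsr1, Utp20, a large helical repeat protein of the processome, had the most fragments: 10, 2 and 8 in dICSI-AOA, 4, 2 and 7 in ICSI-AOA and 2, 7 and 0 in ICSI, at a mean of 0.44 FPKM and so outside the tests. Rrp12 had 23 fragments and Utp18 21, spread over 8 and 9 libraries. Imp4 had 8, Utp14a 3, Utp15 2, and Utp3, Wdr75, Imp3, Bms1 and Rrp36 had 1 each. The 42 members below 200 fragments together gave 24 to 44 fragments per library in dICSI-AOA, 38 to 44 in ICSI-AOA and 25 to 43 in ICSI, and the groups overlapped.

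As a whole the 49 genes took 0.248 to 0.378% of all fragments in dICSI-AOA, 0.299 to 0.315% in ICSI-AOA and 0.229 to 0.267% in ICSI. The 3 ICSI-AOA libraries lay above the 3 ICSI libraries, and dICSI-AOA overlapped both. The top value was dICSI-AOA replicate 1, where 190 of 592 member fragments were Tsr1. The higher share in ICSI-AOA was not common to all members. Summed over libraries, ICSI-AOA had more fragments than ICSI in Krr1 (267 against 148), Pes1 (304 against 208), Nsun5 (160 against 97) and Fbl (114 against 73). It had slightly fewer in Dkc1 (150 against 157), Emg1 (145 against 149) and Tsr1 (137 against 141). Members with at least 1 fragment in a group numbered 23 in dICSI-AOA, 30 in ICSI-AOA and 25 in ICSI. Of those in ICSI-AOA, Nop10, Utp3, Wdr75, Imp3 and Rrp36 had 1 fragment each over all libraries, always in ICSI-AOA replicate 1. The higher number there thus rests on 1 library, and the shares of all genes detected by group were not counted.

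Other genes of the pathway were counted from a list of 128 symbols, of which 115 were in the table, 33 of them at 0 and 30 tested. In ICSI-AOA against ICSI 0 of the 30 were higher and 2 lower, in dICSI-AOA against ICSI 0 were higher and 2 lower, and in dICSI-AOA against ICSI-AOA 1 was higher and 0 lower. Of all 4304 genes tested, 7.06, 6.60 and 6.60% were called in these comparisons in that order, so the counts of the 30 do not stand out from the rest. The median log2 fold changes of the 30 were 0.03, 0.07 and −0.03 in the same order. By list, 4 genes of RNA polymerase I and its factors, 6 of the small subunit, 8 of the large subunit, 7 of snoRNP assembly and rRNA modification and 5 of the exosome and other nucleases were tested.

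These 5 calls came from 4 genes. Nop9, an RNA-binding factor of small subunit maturation known from yeast, had 1897, 1625 and 1779 fragments in dICSI-AOA, 1435, 1548 and 1753 in ICSI-AOA and 1815, 2585 and 1983 in ICSI. The ICSI-AOA libraries lay below all 3 of ICSI in fragments. The log2 fold change against ICSI was −0.53 (SE 0.13, edgeR adjusted p = 0.223) in ICSI-AOA and −0.41 (SE 0.13, edgeR adjusted p = 0.443) in dICSI-AOA. In FPKM all groups of Nop9 overlapped, at means of 431 in dICSI-AOA, 367 in ICSI-AOA and 440 in ICSI. Taf1c, a subunit of the promoter selectivity factor of RNA polymerase I, had −0.85 (SE 0.29) in ICSI-AOA against ICSI, with 20, 15 and 23 fragments in ICSI-AOA against 26, 29 and 42 in ICSI. In FPKM the ICSI-AOA libraries of Taf1c also lay below those of ICSI, as in 2.39% of the genes tested.

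Trmt112, the common activator of several rRNA, tRNA and protein methyltransferases, had 31, 32 and 26 fragments in dICSI-AOA against 39, 41 and 36 in ICSI, and a log2 fold change of −0.53 (SE 0.25). In FPKM these groups of Trmt112 overlapped, at means of 38.2 in dICSI-AOA and 44.0 in ICSI. Dimt1, which dimethylates adenines of 18S rRNA, had 23, 40 and 46 fragments in dICSI-AOA against 15, 25 and 23 in ICSI-AOA, and a log2 fold change of 0.75 (SE 0.31). In FPKM the dICSI-AOA libraries of Dimt1 lay above those of ICSI-AOA, as in 6.97% of the genes tested. None of these 4 genes reached an adjusted p of 0.05 by edgeR. All 9 of the other pathway genes with 200 or more fragments, these 4 among them, overlap a protein-coding gene on the opposite strand by at least 361 bp of exon, against 29 of the 105 below 200 that could be placed, so the same limit holds for them as for Krr1 or Emg1.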

How the data were processed

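RNA of 9 libraries of pooled mouse blastocysts was sequenced. The authors trimmed reads with cutadapt 1.9.3, aligned them with HISAT2 to mm10 and ran Cuffdiff and Cufflinks (versions of these 3 not given in the sources used here), per the labels' processing notes. The library kit is stranded, and the labels and the study's methods name different kits. The authors deposited an estimated count and an FPKM for each gene and library. The replicates are independent collections by the study's design text; the study calls the library names embryo identifiers and also states that blastocysts were pooled, and neither source ties a number to a shared day or batch.

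The deposited estimated counts were whole multiples of 1 step per library, the most frequent positive value, within 0.01 for 95.7 to 96.2% of positive values; each count was divided by its step and rounded to whole fragments, 128176 to 172307 per library. The 4304 genes whose FPKM averaged 1 or more entered a two-sided quasi-likelihood test (edgeR 4.0.16, R 4.3.3), fitted once to the 9 libraries with TMM scaling. A call was a fold change over 1.3 with an unadjusted p under 0.05, after the study, and adjusted p-values (Benjamini-Hochberg) are over the 4304 genes. Alternatives were upper quartile, total and the authors' scaling, DESeq2 1.42.0, limma 3.58.1 on log2(FPKM + 1) or log2(FPKM + 0.1), other filters, fits of each pair of groups alone, a fit with a replicate block, and fits that leave out each library in turn. On simulated counts, edgeR called 30 to 38% of 2-fold and 68 to 84% of 4-fold changes, and 4.25 to 4.95% of unchanged genes. The simulation gave every gene the same fixed spread, not one estimated from these libraries, and its rates are over genes of all depths tested. They are therefore not rates for the members named here.

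The members and the other gene lists were chosen with earlier results of these data known. Members were named if called, if FPKM did not overlap between groups at a mean of at least 5 fragments, or if among the 10 with most fragments, and those at 0 by name; other pathway genes if called, at most 4 per comparison by smallest p, and opposite-strand partners of named members. Members were matched by symbol (49 of 49) to GENCODE for positions and exon overlaps, and 41 of 49 to RefSeq promoters.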

Additional observations from a re-analysis of the deposited data

Results flagged for a closer look

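Emg1, Tsr1 and Krr1 changed differently against ICSI in dICSI-AOA and in ICSI-AOA, by the edgeR test of the difference between the changes, which is the test of dICSI-AOA against ICSI-AOA because both changes share the ICSI libraries. The change of Emg1 in dICSI-AOA was 0.60 higher on the log2 scale than that in ICSI-AOA. That of Tsr1 was 0.92 higher, which rests on dICSI-AOA replicate 1 and turned to −0.24 without it. That of Krr1 differed by −1.0. In FPKM all 3 dICSI-AOA libraries of Emg1 lay above all 3 of ICSI-AOA, as in 6.97% of the 4304 genes. Those of Krr1 lay below, as in 3.35%. None of Emg1, Tsr1 and Krr1 had an adjusted p under 0.05 over the 4304 genes tested by edgeR with all libraries. Krr1 had one under 4 of 20 alternatives. Groups of 3 libraries are too small to test single libraries as outliers.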

How the results depend on the processing

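The members called numbered 3 in ICSI-AOA against ICSI, 1 in dICSI-AOA against ICSI and 3 in dICSI-AOA against ICSI-AOA. Leaving out 1 library at a time gave 1 to 3, 0 to 3 and 2 to 4. DESeq2 gave 1 (Krr1) in ICSI-AOA against ICSI and 0 in dICSI-AOA against ICSI, where upper quartile or total scaling gave 2 (Emg1 and Tsr1), the authors' factors 3 (also Pes1) and a fit of the libraries compared only 0; other counts stayed within 1.5 times. Without a filter Polr1b was called in place of Pes1 in ICSI-AOA against ICSI, Tsr1 in place of Emg1 in dICSI-AOA against ICSI, and Rrs1 in addition between the AOA groups. An adjusted p under 0.05 by edgeR appeared for Krr1 between the AOA groups under 4 of 20 alternatives (no filter, the replicate block, without dICSI-AOA replicate 1 and without ICSI replicate 5) and for no other call. For the 9 named members tested, 27 fold changes gave 510 alternative values, of which 435 kept direction and call, 27 lost a call, 13 gained one and 35 turned sign. With the authors' factors, Pes1 was 0.026 in dICSI-AOA against ICSI-AOA, Krr1 0.14 and Rrp8 0.16 in dICSI-AOA against ICSI, and Tsr1 0.15, Emg1 0.13 and Dkc1 0.11 in ICSI-AOA against ICSI. By limma with a pseudocount of 1 or 0.1, Krr1 was 0.11 or 0.12 and Rrp8 0.24 or 0.44 in dICSI-AOA against ICSI, and Tsr1 0.057 or 0.057, Emg1 0.20 or 0.21, Rrp8 0.12 or 0.29 and Nop56 −0.37 or −1.23 in ICSI-AOA against ICSI; Nop56 was −0.072 with 0.1 in dICSI-AOA against ICSI. Leaving out 1 library turned the sign within these ranges: in ICSI-AOA against ICSI Tsr1 −0.31 to 0.0090, Rrp8 −0.83 to 0.0008 and Nop56 −1.19 to 0.83; in dICSI-AOA against ICSI Tsr1 −0.40 to 1.17, Fbl −0.16 to 0.49, Rrp8 −0.56 to 0.27 and Nop56 −0.54 to 0.76; between the AOA groups Pes1 −0.15 to 0.023, Tsr1 −0.24 to 1.32, Rrp8 −0.12 to 0.47 and Nop56 −0.79 to 1.51. The cause was not tested. Only the AOA groups share more than 1 replicate number, and same-numbered libraries did not deviate together (correlations 0.038, −0.045 and 0.038), so the numbers were not taken as pairs; with the replicate block 3 members were called, Krr1 at −1.01, Emg1 at 0.61 and Tsr1 at 0.61. Depth limits the rest: 39 of the 49 members were below the filter, and 14 of the 33 with fragments had fewer than 10 over the 9 libraries.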
